A study of Rattus norvegicus with 10 samples.

Results

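The metabotropic glutamate receptors listed here were Grm2, Grm3, Grm4, Grm5, Grm6, Grm7 and Grm8, and their mRNAs were compared between the spinal cords of morphine-tolerant and saline-treated rats. Members were the mRNA probes whose RefSeq accession belongs to 1 of these 7 genes. Of the 7, 6 had a probe, against 13888 named genes with an mRNA probe on the array, each of the 6 had a single spot, and Grm5 is not analysed here. The samples were total RNA from the spinal cord, taken at the lumbar enlargement, of 10 male Sprague Dawley rats of 240 to 260 g, with 1 one-colour array per rat. The 5 rats of the morphine tolerance (MT) group received 10 μg of morphine in 10 μl intrathecally, and the 5 rats of the normal saline (NS) group received 10 μl of saline by the same route. Both groups were injected 2 times a day for 7 days, so the spinal injections themselves were common to both. The study states that a last morning dose of morphine or saline came the next day, 1 hour before the rats were anesthetized. Effects of that last dose and of the repeated doses cannot be told apart here. The tissue holds all cell types of the cord, so fewer cells of a type and less RNA per cell cannot be told apart in any difference given here.

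Metabotropic glutamate receptors are G protein-coupled receptors of class C that bind glutamate in a large extracellular domain. Group I receptors, which include Grm5, signal through Gq and phospholipase C, while group II (Grm2 and Grm3) and group III (Grm4, Grm6, Grm7 and Grm8) couple to Gi/o, lower cyclic AMP, open potassium channels and restrain calcium channels. In the dorsal horn, group II and group III receptors on nerve terminals limit glutamate release, and Grm3 is also made by astrocytes.

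Of the 6 receptors measured, Grm2 was higher in MT rats, and it was the sole receptor past the criteria used here, a P below 0.05 before adjustment and a change of more than 1.5-fold on the linear scale. The linear scale is a reading of the study's criteria from the scale of its listed folds, while its text words them as a log2 fold change. On the log2 scale 0 of the 6 receptors would pass, and 0.15% of mRNAs. Grm3, the other group II receptor, was lower in every MT rat than in every NS rat, by a fold smaller than the criterion. The group III receptors Grm4, Grm6, Grm7 and Grm8 did not pass the criteria, and their exact permutation p values were above 0.05 with quantile normalization. The criteria were met by 2.6% of the 13375 mRNAs tested, and in the direction of Grm2, higher in MT, by 1.61%. By sign alone 4 of the 6 receptors were higher in MT, where 46.8% of all mRNAs were. With 75th percentile scaling Grm6 turned and 5 receptors were higher. That scaling also moved the median log2 difference of all mRNAs from -0.016 to 0.026, and the share of mRNAs higher under it was not counted.

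The 10 arrays fell into 3 sets by the scan times in the scanner files, and each set is called a slide here. Slide 1 held MT rats 1, 3, 4 and 5. Slide 2 held MT rat 2 with NS rats 6, 7 and 10, and slide 3 held NS rats 8 and 9. Spots well above background made up 81.1 to 83.9% of each MT array, 77.4 to 79.6% of the NS arrays of slide 2, and 58.6 and 63.8% of the arrays of slide 3. A comparison within a slide was therefore possible on slide 2 alone, with 1 MT rat against 3 NS rats. Blocking the fit by slide gives that same difference. Of 11 spinal cord markers, 5 had a probe (Slc6a5, Slc5a7, Hoxd10, Pax2 and Isl1), and none of them passed the criteria between the groups.

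Grm2, a presynaptic autoreceptor at glutamate synapses, lies at chr8:116158810-116171857 of the GRCr8 assembly. Its normalized log2 intensity was 4.54, 3.73, 5.09, 4.89 and 4.24 in MT rats 1 to 5, and 3.16, 3.35, 2.80, 3.03 and 3.23 in NS rats 6 to 10. The groups did not overlap, and the spot was well above background on all 5 MT arrays and on 0 of 5 NS arrays. The means were 4.50 ± 0.54 in MT and 3.12 ± 0.21 in NS (SD, n = 5 each). Because no NS array measured Grm2 well above background, the size of its fold is uncertain. It was 1.79-fold when each NS array was set to the higher of its own value and the lowest signal well above background on it. This is not a strict lower bound, since that lowest signal is taken over all probes of the array. The fitted difference on the measured values was 1.38 on the log2 scale (SE 0.24, 95% interval 0.85 to 1.91), with an adjusted p of 0.0555 by limma with Benjamini-Hochberg adjustment over 20286 RNAs. Adjusted p values under 0.05 were reached by 0.232% of mRNAs and by none of the receptors in this fit. Grm2 passed the filter on dim probes only through the MT arrays, so its separation of the groups is given as a description, beside the 2.26% of mRNAs for which all MT rats lay above all NS rats. With no such filter its adjusted p was 0.0747.

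The difference in Grm2 ran along the slides as well as the groups. The 4 MT rats of slide 1 had 4.24 to 5.09, the MT rat of slide 2 had 3.73, the NS rats of slide 2 had 3.16 to 3.35, and those of slide 3 had 2.80 and 3.03. In the scanner's background-subtracted intensity, before normalization, the MT arrays of slide 1 read 20.1 to 43.8, MT rat 2 read 21.7, the NS arrays of slide 2 read 12.7 to 14.2 and those of slide 3 read 2.34 and 2.62. Within slide 2 the log2 difference was 0.48, or 1.39-fold (unadjusted P 0.140 in the limma fit blocked by slide), so that the call was lost there. Without slide 3 it was 1.25 (adjusted p 0.173), and with background correction by normexp it was 0.32 (unadjusted P 0.00236), below the fold criterion. Without MT rat 2, the lowest of its group, the adjusted p of Grm2 was 0.0155, and without any other single rat it was above 0.05. With a mean-variance trend in limma it was 0.0480. Grm2 was 1 of 47 mRNA probes of 15323 (0.307%) above background on 5 MT and 0 NS arrays, while 0 probes had the opposite pattern. The study chose Grm2 for further measurement from these same arrays, so its call here is not independent evidence of a direction. By RT-qPCR the study reported a trend for Grm2, but no significant difference between the groups.

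**Figure D1:**
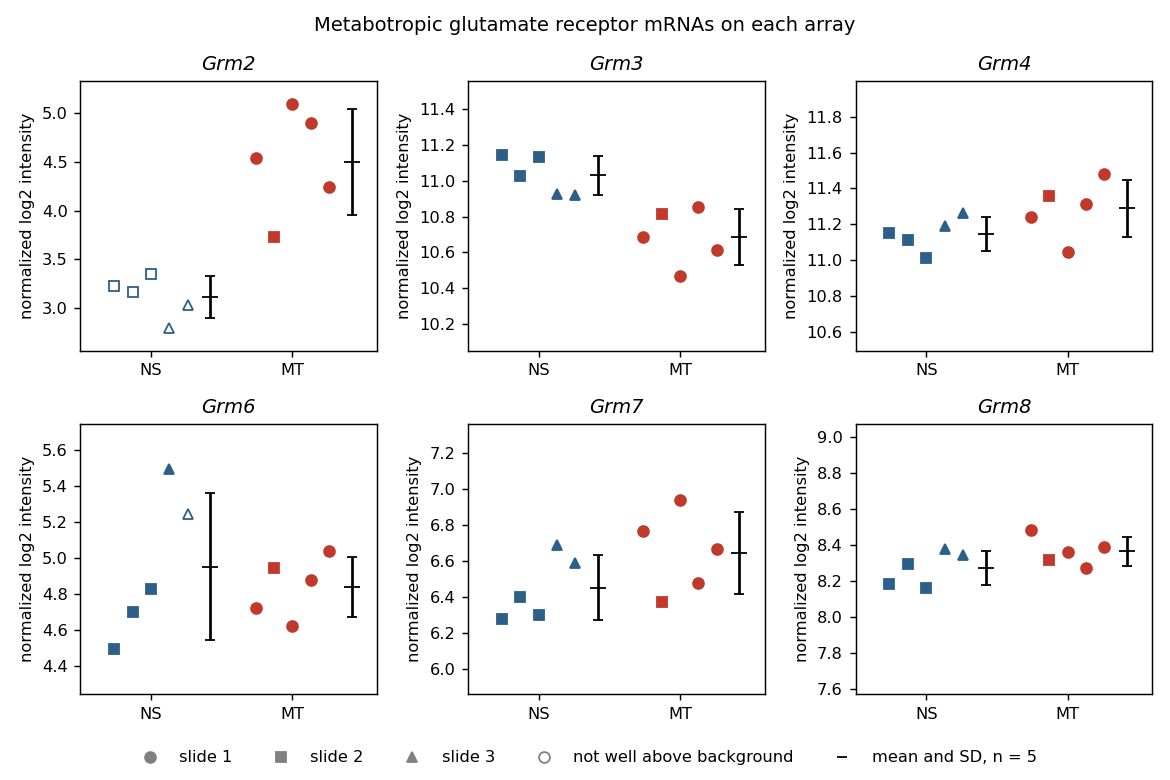
Normalized log2 intensity of the 6 receptor mRNAs on each array, NS on the left and MT on the right of each panel, with symbols for the slide and open symbols for spots not well above background. The black bars are the mean and SD over 5 rats. Grm2 is separated between the groups and open on all NS arrays, Grm3 is separated in the other direction, and the other receptors overlap.

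Grm3 responds to glutamate and to the peptide transmitter NAAG, and lies at chr4:25319218-25600721. Its log2 intensity was 10.69, 10.81, 10.47, 10.85 and 10.61 in MT rats 1 to 5 and 11.03, 11.13, 10.92, 10.92 and 11.14 in NS rats 6 to 10. Every array was well above background, and the highest MT rat was below the lowest NS rat. The log2 difference was -0.34 (SE 0.09, 95% interval -0.55 to -0.14), a 1.27-fold lower level, with an unadjusted P of 0.00357 and an adjusted p of 0.139 by limma. The exact two-sided permutation p was 0.00794, the smallest that 252 assignments of 5 and 5 rats allow, and all MT rats lay below all NS rats for 3.48% of mRNAs. Within slide 2, with 1 MT rat against 3 NS rats, the difference was -0.29. Over all 22 alternative settings it stayed between -0.41 and -0.29. Without slide 3, where the smallest possible p is 0.0179, the exact permutation test of Grm3 gave 0.0179. Both permutation tests reassign rats across slides, so they cannot tell the group from the slide.

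Markers of several cell types were compared between the groups, and none had an adjusted p below 0.05 by limma. All 10 microglial markers were lower in MT, with a median log2 difference of -0.34 and 1 (Tmem119) past the criteria, and the mean log2 level of the list ran from 12.23 to 12.84 in MT rats and from 12.63 to 13.16 in NS rats. The 9 astrocyte marker RNAs had none past the criteria, at a mean level of 14.44 to 14.51 in MT and 14.38 to 14.57 in NS. Neuronal markers were higher for 6 of 9 genes, none past the criteria, with mean levels of 12.87 to 13.07 in MT and 12.72 to 12.95 in NS. Of the 6 neutrophil markers 5 were higher, with Csf3r past the criteria, at mean levels of 7.00 to 7.38 in MT and 6.61 to 7.09 in NS. In the list of dorsal root ganglion markers, 7 of 9 RNAs were higher, at mean levels of 7.23 to 7.87 in MT and 7.12 to 7.86 in NS. All 3 RNAs of Calca were past the criteria, but 1 of them was above background on MT arrays alone, and within slide 2 their differences of 0.29, 0.97 and 0.89 had unadjusted P values of 0.242, 0.0884 and 0.124. Of the 7 meningeal markers 6 were higher (7 of 7 without slide 3), with a median of 0.25, Col3a1 at 0.88 (adjusted p 0.324) and none past the criteria. The 7 muscle markers were split, with 4 higher and 3 lower, a median of 0.02 and none past the criteria. Among them Ckm had 1.75 (adjusted p 0.354), and 0.15 without slide 3. Within slide 2, 9 of 10 microglial, 9 of 9 neuronal and 3 of 6 neutrophil markers went the way just given. With 75th percentile scaling 6 of 9 astrocyte RNAs were higher in MT, against 3 of 9 with quantile normalization. The part of these shifts in the values of Grm2 and Grm3 was not tested.

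Grm4, a group III receptor of presynaptic active zones, lies at chr20:5486024-5574668. Its log2 intensity ran from 11.05 to 11.48 in MT rats and from 11.01 to 11.26 in NS rats, well above background on all 10 arrays. The ranges overlapped, and the difference of 0.14 had a 95% interval of -0.06 to 0.34 (adjusted p 0.455 by limma, exact permutation p 0.135). Within slide 2 it was 0.27, and without MT rat 3 it was 0.20 (unadjusted P 0.0252, adjusted p 0.273).

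Grm7, a presynaptic receptor of low affinity for glutamate, lies at chr4:145286714-146169099. It had 6.77, 6.37, 6.94, 6.47 and 6.66 in MT rats 1 to 5 and 6.40, 6.30, 6.69, 6.59 and 6.28 in NS rats 6 to 10. The groups overlapped, with a difference of 0.19 (95% interval -0.09 to 0.47, adjusted p 0.470) that was 0.05 within slide 2. Grm8, a presynaptic receptor of high affinity, lies on the same chromosome at chr4:56771247-57696951. Its values were within 8.28 to 8.48 in MT and 8.16 to 8.38 in NS, so the groups overlapped. Its difference was 0.09 (95% interval -0.06 to 0.25, adjusted p 0.535). In this fit by group alone, a change of 1.5-fold in either direction lay outside the interval for Grm8. The same held for Grm3, Grm4, Grm6 and Grm7. That fit takes no account of the slide, so such a change is not excluded for differences within a slide. With arrays scaled by their 75th percentile in place of quantile normalization, the exact permutation p was 0.0317 for both Grm7 and Grm8, against 0.183 and 0.151. Without slide 3 the difference of Grm7 was 0.32 (unadjusted P 0.0397, adjusted p 0.256).

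Grm6, the glutamate receptor of ON bipolar cells in the retina, lies at chr10:35669003-35683729 and was dim here. Its log2 intensity was 4.72, 4.94, 4.62, 4.88 and 5.04 in MT rats and 4.70, 4.83, 5.50, 5.25 and 4.49 in NS rats 6 to 10, with NS rat 9 not well above background. The rats of slide 3 were the highest, and they set the sign of the difference, which was -0.11 (95% interval -0.52 to 0.30, adjusted p 0.783) over all rats and 0.16 without slide 3. Of 9 other genes of the retinal ON pathway and photoreceptors, 5 were measured above the filter, and none passed the criteria.

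**Figure D2:**
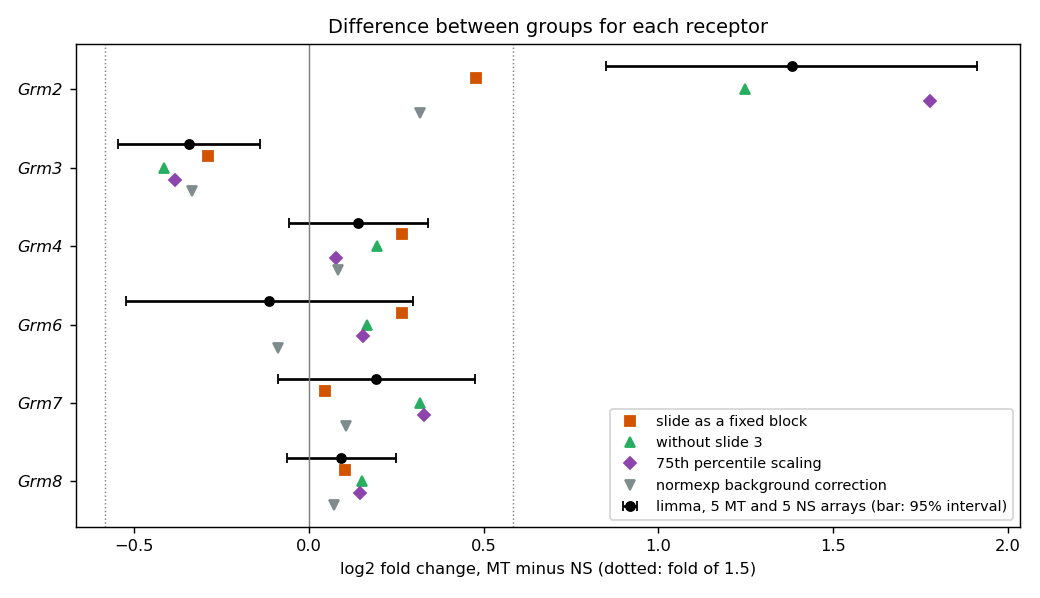
Log2 fold change of each receptor, MT minus NS, in the limma fit over 5 MT and 5 NS arrays (black, with its 95% interval) and under 4 other settings, with dotted lines at a fold of 1.5. Grm2 falls from 1.38 to 0.48 with the slide as a block and to 0.32 with normexp, Grm3 stays below 0 in all settings, and Grm6 lies on both sides of 0.

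Over the 10 arrays, Grm7 and Grm8 moved together (Pearson r 0.81, and 0.80 without slide 3), and each moved against Grm3 (r -0.85 and -0.75). Grm2 and Grm3 had r of -0.76. These are descriptions over arrays that share slides and groups, and the groups alone set part of the value for Grm2 and Grm3. Among 13341 mRNAs, the profiles most like that of Grm2 were Trappc4, a subunit of a vesicle tethering complex, and Bcl2l2, an anti-apoptotic gene (r 0.98 and 0.97). Those most like Grm3 were Cpox, a heme synthesis enzyme, and Akr1c19 (both r 0.98). For the group III receptors they were Igflr1 and Zbed5 for Grm4 (0.96 and 0.95) and Ppp1r8 and Spats2l for Grm6 (both 0.96). Magi1, a scaffold protein, and Sdc2, a syndecan, were most like Grm7 (0.99 and 0.98), and Phka1 and Golga2 most like Grm8 (0.93 and 0.92). These mRNAs were picked as the highest of 13341 over 10 arrays, so a high r follows in part from the selection. The Grm2 profile includes NS values that were not well above background.

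Since Grm7 and Grm8 moved together, their RefSeq promoter windows in GRCr8 are shown, 250 bases before to 50 after an annotated start, 5′ to 3′ on the gene's strand, with capitals for the GC box (GGGCGG on either strand). The Grm7 window is chr4:145286476-145286775 on the plus strand and the Grm8 window chr4:57687457-57687756 on the minus strand. The Grm8 window lies inside the gene span given above, so its start is not the outermost one of the gene.
Grm7: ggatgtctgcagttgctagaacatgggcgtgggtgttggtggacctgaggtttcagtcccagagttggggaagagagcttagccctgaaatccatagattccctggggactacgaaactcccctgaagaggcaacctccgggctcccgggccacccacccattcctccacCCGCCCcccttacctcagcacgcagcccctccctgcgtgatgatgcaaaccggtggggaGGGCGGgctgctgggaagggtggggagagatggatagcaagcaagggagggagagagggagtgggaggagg
Grm8: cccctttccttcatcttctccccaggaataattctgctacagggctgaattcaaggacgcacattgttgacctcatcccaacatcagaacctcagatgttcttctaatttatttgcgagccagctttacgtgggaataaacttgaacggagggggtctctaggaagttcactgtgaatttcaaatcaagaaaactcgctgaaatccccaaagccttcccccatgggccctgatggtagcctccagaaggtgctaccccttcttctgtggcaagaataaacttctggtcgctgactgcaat
The Grm7 window is 62.0% G and C and holds 2 GC boxes, while the Grm8 window is 47.3% and holds 0, and 33.1% of the 33469 rat promoter windows hold at least 1. The cyclic AMP response element half-site TGACG, on either strand, was in neither and is in 21.2% of all windows. TATAAA was in neither and is in 14.2%. The median window is 51.7% G and C. A match or its lack describes these letters alone.

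The genes around the receptors were taken from 7 lists of 102 genes in all, of which 78 genes (86 RNAs) were measured above the filter. Of the 86 RNAs, 48 were higher and 38 lower in MT, with a median log2 difference of 0.04, against -0.02 over all mRNAs, and 1 passed the criteria in each direction. These 2 of 86 RNAs (2.33%) compare with 2.6% of all mRNAs, so their share of calls was near that of the array as a whole. The one that fell was Slc7a11, and the one that rose was Kcnj9.

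Slc7a11 is the cystine-glutamate exchanger, which releases glutamate outside synapses and is known as a source of glutamate for group II receptors. Its log2 intensity was 10.32, 10.70, 10.21, 10.40 and 10.72 in MT rats 1 to 5 and 11.43, 11.15, 11.32, 11.24 and 11.22 in NS rats 6 to 10. The lowest NS rat was above the highest MT rat, as for 3.48% of mRNAs, and all spots were well above background. The log2 difference was -0.80 (SE 0.11), a 1.74-fold lower level, with an adjusted p of 0.0353 by limma, and Slc7a11 was the sole RNA of the lists past the adjusted threshold. When each rat was left out in turn the adjusted p ran from 0.0212 to 0.163, and it was above 0.05 without any rat other than MT rat 2 or NS rat 10. Within slide 2 the difference was -0.57 (unadjusted P 0.0174, just under the fold criterion), and without slide 3 it was -0.79 (adjusted p 0.145). Of the other 12 RNAs for glutamate and NAAG supply, none passed the criteria. The 2 RNAs of the glial glutamate transporter Slc1a2 had differences of -0.31 and 0.24, so they disagreed in direction, and the neuronal transporter Slc1a1 had 0.22.

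Kcnj9 encodes a subunit of the G protein-gated inward rectifier potassium channels that Gi/o-coupled receptors open. It had 6.05, 5.96, 5.89, 6.22 and 6.03 in MT rats 1 to 5 and 5.68, 5.19, 4.87, 4.92 and 5.69 in NS rats 6 to 10, with 1 NS array not well above background. The groups did not overlap, and the NS rats of slide 3 were the lowest. All MT rats lay above all NS rats for 2.26% of mRNAs. The log2 difference was 0.76 (SE 0.17, adjusted p 0.106 by limma). The difference of Kcnj9 was 0.44 within slide 2, 0.51 without slide 3 and 0.32 with normexp, all under the fold criterion. The other 15 RNAs of the Gi/o list, which holds G protein subunits, adenylyl cyclases and calcium channel subunits, passed no criteria, and Gnao1, the alpha subunit of Go, had 0.28 (adjusted p 0.429), and -0.010 within slide 2.

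**Figure D3:**
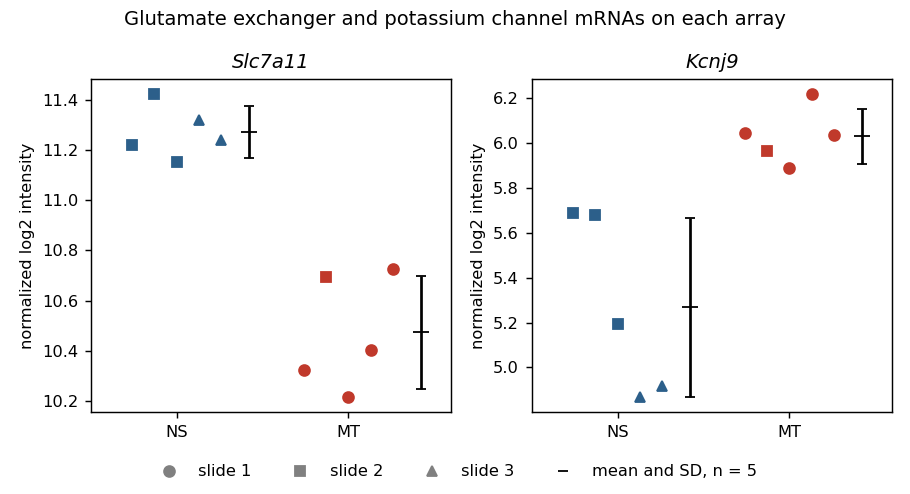
Normalized log2 intensity of Slc7a11 and Kcnj9 on each array, with symbols for the slide and the mean and SD over 5 rats in black. All MT rats lie below all NS rats for Slc7a11 and above them for Kcnj9, where the NS rats of slide 3 are lowest.

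In the other lists no RNA passed the criteria. Among receptor scaffolds and partners, 13 of 17 RNAs were higher in MT, against 46.8% of all mRNAs, with Shank2 and Cabp1 each counted more than once. Within slide 2, 12 of 17 were higher, and the list's median fell from 0.14 to 0.026. The largest difference was 0.42 for Grip1, a PDZ scaffold (adjusted p 0.195), and it was 0.18 within slide 2. The ubiquitin ligase Siah1, which binds group I receptors, had -0.36 (adjusted p 0.142), and -0.24 within slide 2. The 2 RNAs of Cabp1 had 0.25 and 0.14. The Gq list of group I receptors was split, with 8 of 16 RNAs higher (11 without slide 3), and its largest differences were -0.32 for the channel Trpc1, -0.29 for Mgll, which degrades the endocannabinoid made downstream of these receptors, and 0.20 for the phospholipase Plcb4. Of the kinases, arrestins and RGS proteins that switch the receptors off, 9 of 13 RNAs were lower (6 of 13 without slide 3), with -0.53 for Grk3 (adjusted p 0.604), which turned to 0.20 without slide 3 and 0.085 within slide 2, and -0.45 for Grk4 (adjusted p 0.142). Among other class C receptors, Casr, the calcium-sensing receptor, had -0.47 and Tas1r1, a taste receptor, had 0.38, and the GABA-B subunits Gabbr1 and Gabbr2 had 0.10 and 0.12.

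**Figure D4:**
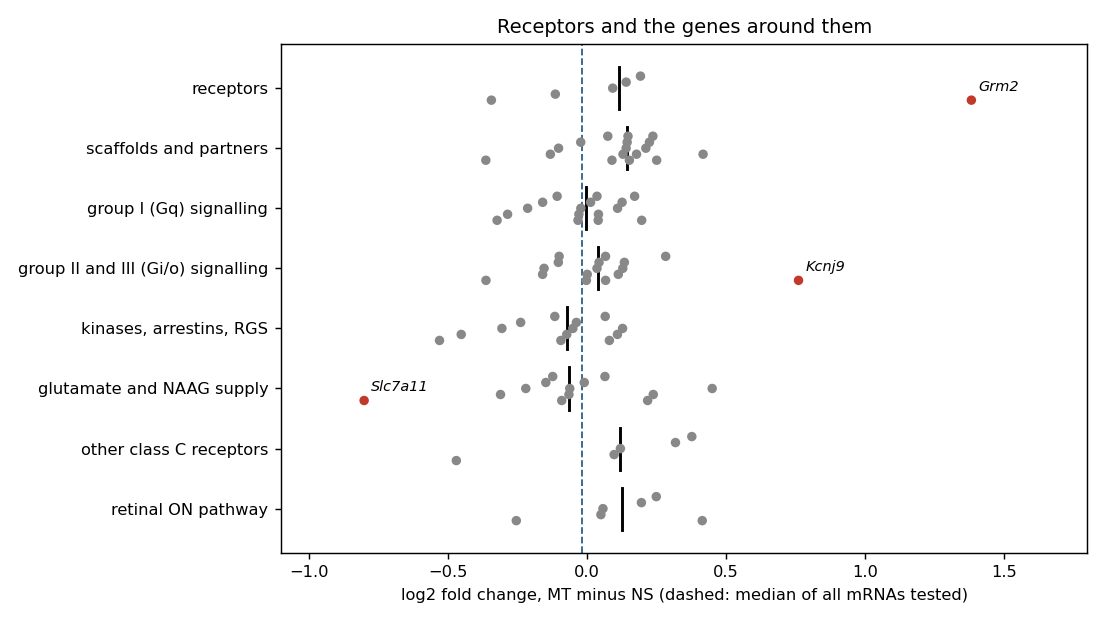
Log2 fold change, MT minus NS, of each RNA in the receptor list and the 7 lists around it, with a black bar at each list's median, the dashed line at the median of all mRNAs and red points for RNAs past the criteria. Grm2 and Kcnj9 are the red points on the right and Slc7a11 the one on the left.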

How the data were processed

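Total RNA of 10 rats was hybridised to one-colour Agilent rat lncRNA arrays after random-primed labelling. The authors deposited the scanner output of each array (spot intensity with the background taken off, and quality flags, from Agilent Feature Extraction 11.0.1.1) and a table of log2 values that they had quantile normalized, used here as an alternative. For the values given, log2 intensities of 42136 spots other than controls were quantile normalized (limma 3.58.1, R 4.3.3). Outlier spots were dropped, spots and probes of an RNA averaged, and probes kept where over 50% of spots passed the background flag on 5 or more arrays. limma compared MT with NS over 20286 RNAs with Benjamini-Hochberg adjustment, and single members were tested by exact two-sided permutation. Positions are those of RefSeq genes in GRCr8, since the arrays were annotated on an older build, and no probe's level was set against another's. The members and lists were chosen with earlier results of these data known. All receptors were named, with the members of each list past the criteria or up to 4 of largest difference, and the 2 most similar mRNAs per receptor. Alternatives were 75th percentile scaling, normexp (offset 50), the deposited values, no filter, a filter on all arrays, outlier spots kept, single probes, a variance trend, the Student test of the methods, blocking by slide (fixed or random), and leaving out slide 3 or each rat. The use of median signals for normexp, leaving out slide 3 and a fold criterion on the log2 scale were chosen after seeing the data. Figures were drawn with matplotlib 3.10.9.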

Additional observations from a re-analysis of the deposited data

How the results depend on the processing

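The count of receptors past the criteria was 1 and became 0 with normexp, with a filter on all 10 arrays (which leaves Grm2 and Grm6 untested) with the slide as a fixed block and with the fold criterion read on the log2 scale, while leaving out each rat in turn kept it at 1 to 1. The count for the lists around them was 2, 1 with normexp, 1 with the filter on all 10 arrays 0 with the fixed block and 0 on the log2 scale, and 2 to 2 when each rat was left out. Of single receptors, 2 (Grm2, seen above background in MT alone, and Grm3) had an exact permutation p under 0.05, and 4 with 75th percentile scaling, where Grm7 and Grm8 joined them. Grm6 changed sign with 75th percentile scaling (0.16), the slide as a fixed block (0.27) or a random block (0.027), without slide 3 (0.16) and without NS rat 8 (0.022). It met the criteria in none of these, and its values ran from -0.23 to 0.022 when each rat was left out. Over all mRNAs, 216 were called higher and 132 lower by the criteria, against 416 and 89 with 75th percentile scaling, 98 and 53 with normexp, 107 and 113 with the fixed block and 286 and 220 without slide 3, and the causes were not tested. The 5 rats a group and the dim spots of Grm2 and Grm6 limit the precision. No paired analysis was possible because no rat number is shared between the groups.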
